A study of Sus scrofa with 12 samples.

Results

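Ventricular pacing was compared between 2 regions of the pig left ventricle by asking, gene by gene, whether the effect of pacing in the septum differed from its effect in the free wall. The measure is a difference of differences: (septum paced minus septum control) minus (free wall paced minus free wall control), on the log2 scale. It is called the difference of pacing effects here. A positive value means that the change with pacing ran more upward in the septum, a negative value that it ran more downward there, and a value of 1 is a ratio of 2 between the regions' paced-to-control ratios. The genes were those of the probe sets whose mean signal over the 12 arrays lay above the 25th percentile of the table (a mean log2 of 3), with the brightest probe set standing for each gene symbol. This gave 10007 genes of the 12361 named on the array, out of 20668 probe sets tested and 27558 in the table.

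The tissue came from female pigs of 13 months, 6 with sham surgery and 6 with pacing, killed 6 months after surgery. Paced pigs had complete atrioventricular block, made with an ablation catheter, and a pacemaker in VDD mode, in which each sensed atrial beat triggers a paced ventricular one. The treatment protocol puts a ventricular lead on the right ventricular septum and an atrial lead on the right atrial appendage of all pigs, so the sham controls shared the leads as the labels word it. Control and paced hearts were each sampled in the free wall and in the septum, which gave 4 groups of 3 arrays (n = 3 throughout). Arrays are not tied to animals in the labels, nor is it said whether an array holds 1 pig, so every p-value here rests on the spread among arrays, which may be technical.

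In a normal heart the impulse travels through the specialised conduction system and activates the septum and free wall almost together. A ventricular lead bypasses that system: the muscle near the lead contracts early and at low load, and the opposite wall contracts late and is stretched first. In hearts paced in this way, early and late activated muscle are known to differ in workload, blood flow, ion channels and hypertrophy. The comparison asks which genes responded unequally in the septum, next to the lead, and in the free wall, away from it.

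Of the 12 working heart muscle markers tested, all but the transcription factor NKX2-5 (mean log2 of 5.13) were bright. The others ran from 9.58 for LDB3 to 12.5 for the slow myosin heavy chain MYH7. None of the differences of pacing effects of the 12 reached an unadjusted p under 0.05. Median array signals lay between 4.3 and 4.45, the highest being that of free wall paced array 2. Next came septum paced array 3 (4.43) and septum control array 3 (4.42), also next to it on the first principal component. Free wall paced array 2 had the highest 25th percentile (3.13) and the smallest SD over probe sets (2.01) as well. Free wall paced array 2 stood apart, at -45.3 on the first principal component against -19.2 to 22.3 for the other arrays and with a limma array weight of 0.24 against 0.631 to 1.68. The differences below are therefore given with all 12 arrays and without that array. Both control arrays numbered 1 lay at 27.2 (free wall) and 24.3 (septum) on the second component. These are bulk samples, in which fewer cells of a type and less RNA per cell cannot be told apart.

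No gene passed for the difference of pacing effects. At a limma adjusted p under 0.05 over all probe sets, 0 of 20668 were called (0% of those tested), and the smallest adjusted p was 0.999, with 12 arrays and without free wall paced array 2 alike. An unadjusted p under 0.05 was met by 569 probe sets (2.75%) and, without that array, by 621 (3%). Among genes, 247 met it (2.47%), with 139 positive (1.39%) and 108 negative (1.08%). Without the array 249 met it (2.49%), with 164 positive (1.64%) and 85 negative (0.849%). The genes whose array values are given first below are the largest differences at an unadjusted p under 0.01, a level reached by 27 genes (0.27%) with 12 arrays and 37 genes (0.37%) without the array. Other genes are named from gene lists or a fixed set, whatever their p. Each is a description of these arrays and none is a call. At both levels the shares of all genes lay below the p threshold itself, which is the share expected on average if no gene differed. The counts thus give no sign of more differences than that.

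The counts leaned on single arrays. The positive count was 76 with septum paced array 1 left out. The negative count was 63 when septum control array 3 was left out, 68 when septum paced array 1 was and 71 when free wall control array 2 was. It was 169 with free wall paced array 3 left out, 227 with free wall paced array 1 left out and 267 with septum paced array 3 left out. The SE of the difference had a median of 0.221 over genes, and 0.208 without free wall paced array 2. Of the 27 genes at an unadjusted p under 0.01, 18 had a mean signal under the table's median of 4.36, against 29.9% of all genes tested, so most of the genes named at that level are dim.

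Across genes the pacing effects of the regions had a Pearson correlation of 0.31 (10007 genes, no array in common), and 0.47 without free wall paced array 2. This is across genes, which are not independent replicates, and the arrays may share animals. The difference of pacing effects had a median of 0.02 and an SD of 0.235 over genes, against 0.007 and 0.215 without the array. It reached 1 or more in size in 10 genes, and in 17 without the array. It reached 0.5 in 431 genes, and in 307 without the array.

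**Figure D1:**
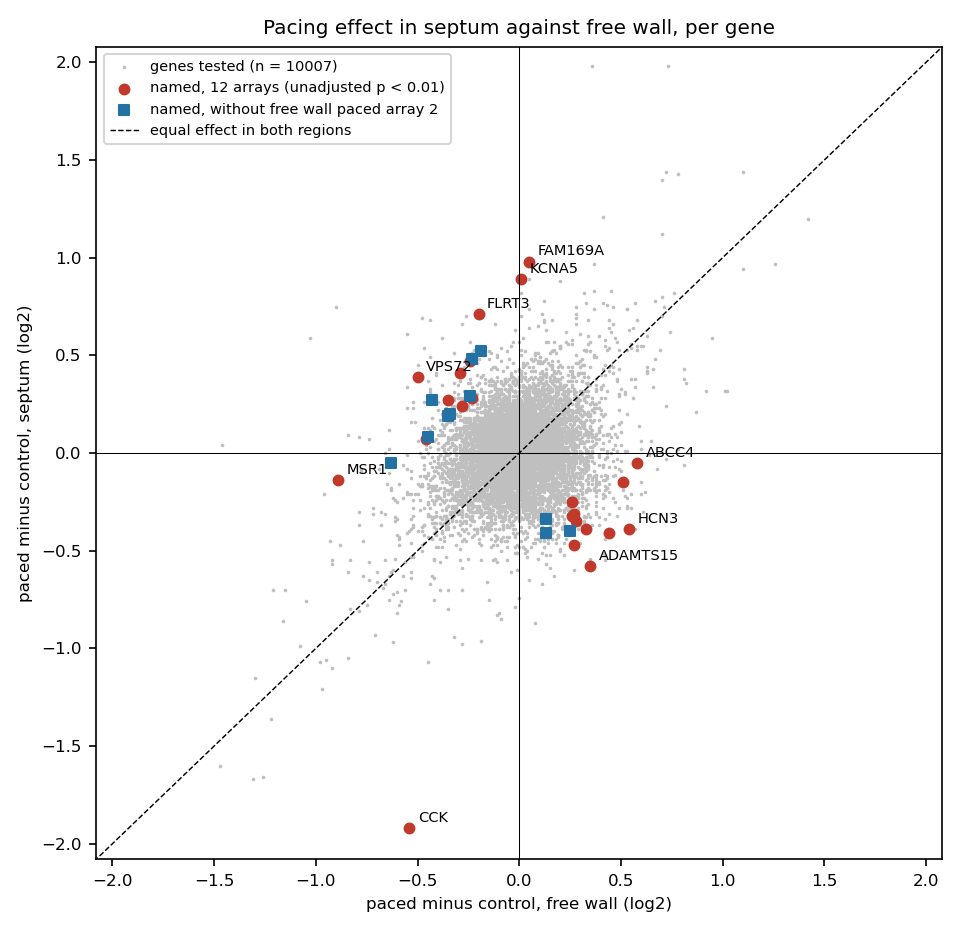
Each grey point is 1 of the 10007 genes, placed by its pacing effect in the free wall (horizontal axis, log2) and in the septum (vertical axis, log2) over 12 arrays. Coloured points are the named genes and the dashed line marks equal effects. CCK lies lowest, at -0.54 in the free wall and -1.92 in the septum, and most other coloured points lie in the corners where the effects have opposite signs.

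Most genes with a low p had estimated effects of opposite sign in the regions. An estimate near 0 counts by its sign here too, as in ABCC4 (0.58 in the free wall, -0.05 in the septum). Of the 247 genes at an unadjusted p under 0.05, 230 (93.1%) had effects of opposite sign in the regions, against 44.1% of all genes. A further 11 had the same sign and a larger effect in the septum, and 6 the same sign and a larger effect in the free wall. With that array left out the counts were 219 (88%, against 35.9% of all genes), 13 and 17. A large difference is reached more easily from opposite signs, so these classes are a description and have no test.

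Few of these opposite effects were clear in both regions. Among the 230 genes, both regional effects had an unadjusted p under 0.05 in 5 (0.05% of genes tested), only the free wall effect in 74, only the septal effect in 66 and neither in 85. Over all genes, the free wall effect was at that level in 464 (4.64%) and the septal effect in 451 (4.51%). The 5 were the diamine oxidase AOC1, the serine dehydratase SDS, the coiled-coil protein CCDC159 and the loci LOC100518850 and LOC100152459. The count of opposite effects itself was 125 when septum paced array 1 was left out and 149 when septum control array 3 was. It was 363 with free wall paced array 1 left out and 405 with septum paced array 3 left out.

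Read the other way, the same 247 genes show how the gap between septum and free wall differed between control and paced pigs. In 210 genes the gap had opposite signs in control and paced hearts, in 34 it had the same sign and was wider in paced hearts, and in 3 it was narrower. Over all 10007 genes the gap had opposite signs in 4100, and in 3112 without free wall paced array 2. The counts were 189, 55 and 5 with free wall paced array 2 left out.

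CCK had the largest negative difference of any named gene. It encodes cholecystokinin, a peptide hormone of gut and brain that heart muscle also makes. CCK read 10.22, 10.73 and 10.88 in free wall control arrays, 9.85, 10.16 and 10.19 in free wall paced arrays, 10.2, 10.81 and 10.86 in septum control arrays and 9.01, 8.66 and 8.45 in septum paced arrays. Paced arrays were below control arrays in both regions without overlap, and the septum paced arrays were lowest of all. The effect was -0.54 (SE 0.22) in the free wall and -1.92 (SE 0.22) in the septum, and CCK was the 1 gene (0.00999%) whose pacing effect within the septum passed at a limma adjusted p under 0.05. The difference was -1.37 (SE 0.32, a 2.59-fold ratio, unadjusted p = 0.001, adjusted p = 0.999), and -1.33 (SE 0.34) without free wall paced array 2. Septum and free wall stood 0.01 apart in control hearts and -1.36 apart in paced hearts.

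CCKBR, the receptor that binds both cholecystokinin and gastrin, was dim, at a mean log2 of 3.18. CCKBR read 2.88, 3.19 and 3.07 in free wall control, 3.12, 3.62 and 3.25 in free wall paced, 3.36, 3.27 and 3.38 in septum control and 2.97, 2.88 and 3.11 in septum paced arrays. Septum paced arrays lay below septum control arrays without overlap, and the free wall groups overlapped. Its difference was -0.63 (SE 0.20, unadjusted p = 0.00825), and -0.49 (SE 0.17) without free wall paced array 2, the highest of its group.

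Other peptide hormones and their receptors had differences on both sides of 0, and the balance moved with the choice of arrays. Of 22 hormone precursor genes tested, 8 differences were above 0 and 14 below, with a median of -0.12 (0.02 over all genes), and CCK alone was at an unadjusted p under 0.05. Without free wall paced array 2, 13 were above 0 and the median was 0.06. Of 26 receptors tested, 13 lay on each side, with a median of -0.01, and CCKBR alone was at that level. Without free wall paced array 2, 10 were above 0 and 16 below, with a median of -0.12, and the angiotensin receptor AGTR1 joined CCKBR at that level, at -0.53 (SE 0.19) against -0.29 (SE 0.27) with 12 arrays. The calcitonin receptor partner RAMP1 had a difference of 0.31 (SE 0.15) and the corticotropin-releasing hormone receptor CRHR1 one of -0.46 (SE 0.31).

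Among adrenergic receptors, an alpha-1 and an alpha-2 member had differences of opposite sign, while the purinergic receptors P2RY1 and P2RY14 both lay below 0. ADRA1B, an alpha-1 adrenergic receptor, had a difference of -0.63 (SE 0.23, free wall 0.09, septum -0.54), and -0.58 without free wall paced array 2. ADRA2B, an alpha-2 adrenergic receptor, had one of 0.65 (SE 0.24, free wall -0.14, septum 0.51), and 0.61 without the array. P2RY1, the ADP receptor, had -0.62 (SE 0.32) and -0.73 without the array, and P2RY14 had -0.20 and -0.38. The wider list of receptors of heart and vessel that couple to G proteins, which holds both families and others, had 27 members tested, with 12 differences above 0 and 15 below. The balance turned without free wall paced array 2, to 17 above and 10 below, and the median went from -0.03 to 0.09. At an unadjusted p under 0.05 the list had 1 positive and 1 negative member, and 1 positive and 3 negative without the array.

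HCN3 and KCNA5 were the ion channel genes with the largest differences, in opposite directions. HCN3 belongs to the pacemaker channels opened by hyperpolarisation and cyclic nucleotides. HCN3 read 4.52, 4.43 and 4.51 in free wall control, 4.85, 5.47 and 4.76 in free wall paced, 4.7, 4.68 and 5.04 in septum control and 4.34, 4.22 and 4.68 in septum paced arrays. Free wall paced arrays lay above the free wall controls without overlap, while 1 septum paced array tied the lowest septum control array and the other 2 were below it. The difference was -0.93 (SE 0.27, unadjusted p = 0.00474; free wall 0.54, septum -0.39). The difference was -0.71 (SE 0.21) without free wall paced array 2, its highest value.

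KCNA5 encodes the potassium channel Kv1.5, which carries the ultrarapid delayed rectifier current. KCNA5 read 5.58, 5.48 and 5.18 in free wall control, 5.57, 4.93 and 5.76 in free wall paced, 6.1, 6.02 and 5.87 in septum control and 7.15, 6.73 and 6.79 in septum paced arrays. All septum arrays lay above all free wall arrays, and the septum paced arrays lay above the septum controls. The effect was 0.01 in the free wall and 0.89 in the septum, so that the septum's excess over the free wall was 0.58 in control hearts and 1.47 in paced hearts. The difference was 0.89 (SE 0.29, unadjusted p = 0.00984), and 0.64 (SE 0.22) without free wall paced array 2, the lowest of the 12.

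Most other channel genes had smaller differences, on both sides of 0. Of 30 potassium channel genes and subunits tested, 10 differences were above 0 and 20 below, with a median of -0.11, and 15 lay on each side without free wall paced array 2. KCNA5 and KCNA6, another Kv1 channel at -0.46 (SE 0.20), were at an unadjusted p under 0.05. Without the array KCNA6 had -0.39 (unadjusted p = 0.0758), and KCNK3, the background potassium channel TASK-1, had 0.59 (SE 0.18, unadjusted p = 0.00741), against 0.28 (SE 0.31) with 12 arrays. KCNK3 read 3.08, 4.01 and 3.08 in free wall paced arrays, with array 2 above the others of its group. KCNIP2, the subunit of the transient outward channel, was lower in paced arrays of both regions without overlap, by -0.43 in the free wall and -0.33 in the septum. Its difference was 0.10 (SE 0.16). Of 16 sodium, calcium and pacemaker channel genes, 6 were above 0 and 10 below, with HCN3 alone at that level. The main sinus node pacemaker channel HCN4 had a difference of -0.23 (SE 0.28), and -0.05 without free wall paced array 2.

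ABCC4, a membrane pump that exports cyclic AMP among other substrates, differed between paced and control arrays most clearly in the free wall. ABCC4 read 6.19, 6.22 and 6.1 in free wall control, 6.75, 6.79 and 6.7 in free wall paced, 6.06, 6.11 and 6.12 in septum control and 5.95, 6.25 and 5.95 in septum paced arrays. The free wall paced arrays lay above all 9 others, and the septum groups overlapped. The free wall effect was 0.58 (SE 0.11, unadjusted p = 0.000198) and the septal effect -0.05. The difference was -0.62 (SE 0.15, unadjusted p = 0.00164), and -0.60 (SE 0.16) without free wall paced array 2. Its mean log2 was 6.27, above most genes named. Of the 28 genes of cyclic nucleotide signalling tested, 13 differences were above 0 and 15 below, and ABCC4 alone was at an unadjusted p under 0.05. With free wall paced array 2 left out, 8 were above 0 and 20 below, with a median of -0.08, and ABCC4 was again alone at that level.

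**Figure D2:**
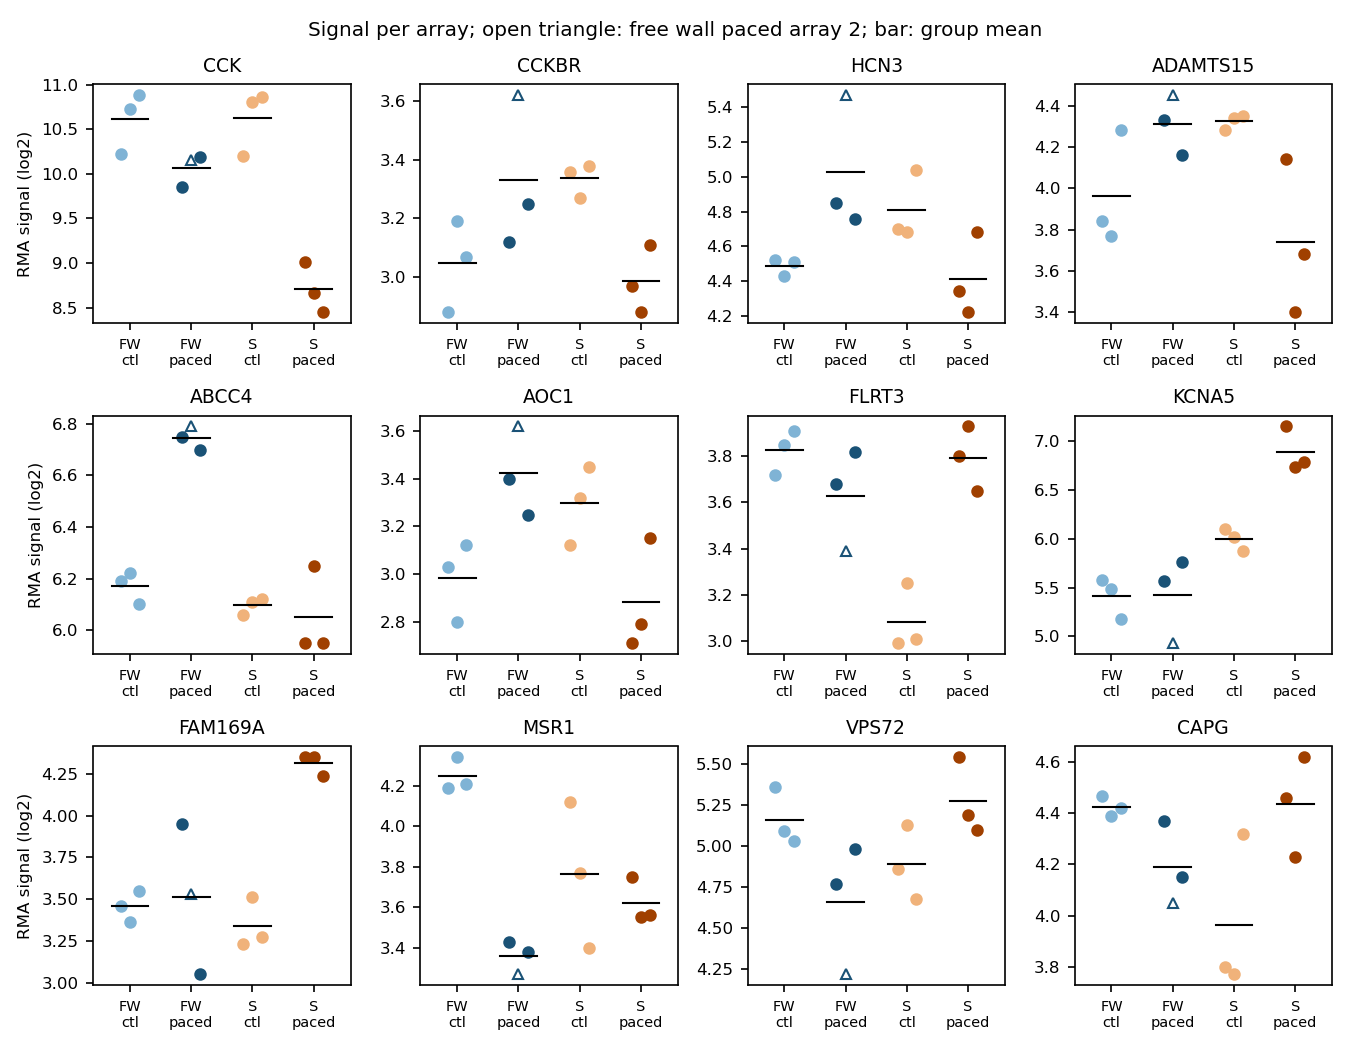
RMA signal (log2, vertical axis, scaled for each gene) of 12 named genes in the 4 groups, 1 point per array with the group mean as a bar. Open triangles mark free wall paced array 2. CCK is lowest in the 3 septum paced arrays (8.45 to 9.01), ABCC4 highest in the 3 free wall paced arrays (6.7 to 6.79), and KCNA5 highest in the 3 septum paced arrays (6.73 to 7.15).

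A list drawn up for enzymes of amine, purine and amino acid metabolism held 4 of the negative differences at an unadjusted p under 0.05. AOC1, the diamine oxidase that degrades histamine, read 3.03, 2.8 and 3.12 in free wall control, 3.4, 3.62 and 3.25 in free wall paced, 3.12, 3.32 and 3.45 in septum control and 2.71, 2.79 and 3.15 in septum paced arrays. Free wall paced arrays lay above the controls, and septum groups overlapped by 1 array. Its regional effects were 0.44 and -0.41, with a difference of -0.85 (SE 0.22, unadjusted p = 0.00223) and -0.75 (SE 0.22) without free wall paced array 2. With low values raised to the 25th percentile it was -0.63. SDS, the serine dehydratase, read 3.39, 3.32 and 3.07 in free wall control, 3.26, 3.71 and 3.81 in free wall paced, 3.54, 3.4 and 3.67 in septum control and 3.13, 3.13 and 3.17 in septum paced arrays. The septum paced arrays lay below the septum controls, and the free wall groups overlapped. Its difference was -0.73 (SE 0.21), and -0.67 without the array.

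ASPHD2, which resembles aspartate beta-hydroxylase, read 3.74, 3.4 and 3.26 in free wall control, 3.66, 3.77 and 3.77 in free wall paced, 3.72, 3.77 and 3.62 in septum control and 3.23, 3.34 and 3.12 in septum paced arrays. The septum paced arrays lay below the septum controls without overlap. Its difference was -0.74 (SE 0.18, unadjusted p = 0.0018), and -0.72 without free wall paced array 2. HDC, the enzyme that makes histamine and marks mast cells, had a difference of -0.54 (SE 0.18), and -0.52 without the array. The branched-chain aminotransferase BCAT2 had one of 0.36. In all, 5 of 25 genes tested from the list of amine, purine and amino acid enzymes (20%) were at an unadjusted p under 0.05, beside 2.47% of all genes. That count includes ASPHD2, whose part in amine or amino acid metabolism was not examined here. The list was put together with AOC1, SDS and ASPHD2 known, so this share is no independent evidence. Its median was 0.07, and 14 of its differences were above 0. Of 4 mast cell markers tested, HDC was the 1 below 0, and MS4A2 and KIT had differences of 0.56 (SE 0.27) and 0.34 (SE 0.32). Of the 4, 2 were below 0 without free wall paced array 2.

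ADAMTS15, a secreted metalloprotease that cuts matrix proteoglycans, read 3.84, 3.77 and 4.28 in free wall control, 4.33, 4.45 and 4.16 in free wall paced, 4.28, 4.34 and 4.35 in septum control and 4.14, 3.4 and 3.68 in septum paced arrays. Septum paced arrays lay below the septum controls, and the free wall groups overlapped through free wall control array 3. The difference was -0.93 (SE 0.26, unadjusted p = 0.00423; free wall 0.35, septum -0.58), and -0.86 (SE 0.28) without free wall paced array 2. CTSW, a protease of natural killer and cytotoxic T cells, read 3.56, 3.64 and 3.44 in free wall control, 3.96, 4.26 and 3.96 in free wall paced, 3.74, 3.89 and 4.07 in septum control and 3.75, 3.63 and 3.88 in septum paced arrays. Its free wall groups did not overlap and differed by 0.51, and its septum groups overlapped. Its difference was -0.66 (SE 0.18, unadjusted p = 0.00393), and -0.56 without the array.

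The lists that hold these proteases gave few other genes. Among 44 matrix proteases and inhibitors tested, 21 differences were above 0 and 23 below, with a median of -0.01, and ADAMTS15 and CTSW alone were at an unadjusted p under 0.05. The membrane protease MMP16 had -0.54 (SE 0.28). Among 16 T and natural killer cell markers, 3 were above 0 and 13 below with a median of -0.11, but without free wall paced array 2 there were 8 on each side. CTSW alone was at an unadjusted p under 0.05 with 12 arrays. TBX21, the T-bet transcription factor of such cells, had 0.40 (SE 0.19).

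The other negative genes were PMEL, ONECUT1 and CCDC159, all dim. PMEL, the fibril protein of pigment granules, read 3.23, 3.1 and 3.22 in free wall control, 3.26, 3.69 and 3.41 in free wall paced, 3.39, 3.55 and 3.29 in septum control and 3.1, 3.08 and 3.12 in septum paced arrays. ONECUT1, a transcription factor of liver and pancreas, read 2.82, 2.8 and 2.98 in free wall control, 3.05, 3.24 and 3.1 in free wall paced, 3.15, 3.15 and 3.54 in septum control and 2.92, 3.03 and 2.92 in septum paced arrays. CCDC159 read 3.27, 3.24 and 3.27 in free wall control, 3.47, 3.58 and 3.51 in free wall paced, 3.47, 3.55 and 3.65 in septum control and 3.31, 3.24 and 3.36 in septum paced arrays. In all 3 genes paced arrays were above controls in the free wall and below controls in the septum, with no overlap in either region. Their differences were -0.58 (SE 0.18), -0.59 (SE 0.18) and -0.51 (SE 0.14), and -0.46, -0.53 and -0.48 without free wall paced array 2. Raising low values to the 25th percentile gave -0.42 for ONECUT1.

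On the positive side FLRT3 had the smallest p of all genes. It encodes a leucine-rich repeat protein of the cell surface that takes part in cell adhesion and axon guidance. FLRT3 read 3.72, 3.85 and 3.91 in free wall control, 3.68, 3.39 and 3.82 in free wall paced, 2.99, 3.25 and 3.01 in septum control and 3.8, 3.93 and 3.65 in septum paced arrays. The septum control arrays were lowest of the 12, and the other 3 groups overlapped. The septum stood below the free wall by -0.74 in control hearts and above it by 0.16 in paced hearts. The effect was 0.71 (SE 0.14) in the septum and -0.20 in the free wall. The difference was 0.91 (SE 0.19, unadjusted p = 0.000564, adjusted p = 0.999), and 0.79 (SE 0.17) without free wall paced array 2.

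FLRT3 belonged to a list of 50 axon guidance and neural adhesion genes, of which 30 differences were above 0 and 20 below, with a median of 0.04. EFNB1, an ephrin ligand, had 0.42 (SE 0.16), and 0.49 without free wall paced array 2. CNTN1, a contactin of nerve cells, had -0.95 (SE 0.36) from a septal effect of -0.87, and -0.83 (unadjusted p = 0.0548) without the array. With 12 arrays these 3 were the members at an unadjusted p under 0.05 (6%, beside 2.47% of all genes). Of 8 markers of Schwann cells and neurons tested, 5 were above 0 and 3 below, none at that level, and their mean level (centred per gene) ranged from -0.06 to 0.10 in free wall paced and from -0.13 to 0.04 in septum paced arrays. Their part in these genes' values was not tested.

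FAM169A, a gene of little known function, read 3.46, 3.36 and 3.55 in free wall control, 3.95, 3.53 and 3.05 in free wall paced, 3.23, 3.51 and 3.27 in septum control and 4.35, 4.35 and 4.24 in septum paced arrays. The septum paced arrays lay above the other 9, and the free wall paced arrays were widely spread. The difference was 0.92 (SE 0.26, unadjusted p = 0.00454; free wall 0.05, septum 0.98), and 0.93 (SE 0.29) without free wall paced array 2. FAM169A, KCNA5 and CCK were thus the named genes at an unadjusted p under 0.01 whose larger effect lay in the septum with the same sign in both regions. MSR1 and the uncharacterised C6H1orf94 had the same sign in both regions and the larger effect in the free wall at that level.

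MSR1 encodes the class A scavenger receptor of macrophages. MSR1 read 4.19, 4.34 and 4.21 in free wall control, 3.43, 3.27 and 3.38 in free wall paced, 4.12, 3.77 and 3.4 in septum control and 3.75, 3.55 and 3.56 in septum paced arrays. Free wall paced arrays lay below the free wall controls by a wide margin, and septum groups overlapped. The effect was -0.89 (SE 0.16) in the free wall and -0.14 in the septum. The difference was 0.74 (SE 0.22, unadjusted p = 0.00648), 0.70 (SE 0.24) without free wall paced array 2, and 0.95 without both control arrays numbered 1, an alternative chosen after the data were seen.

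VPS72, a subunit of the complexes that place the histone variant H2A.Z, read 5.36, 5.09 and 5.03 in free wall control, 4.77, 4.22 and 4.98 in free wall paced, 4.86, 5.13 and 4.68 in septum control and 5.54, 5.19 and 5.1 in septum paced arrays. Free wall paced arrays lay below the controls, and the septum groups overlapped by 1 array. Its difference was 0.89 (SE 0.29), and 0.67 (SE 0.24) without free wall paced array 2, the lowest of the 12. CAPG, which caps actin filaments and is abundant in macrophages, read 4.47, 4.39 and 4.42 in free wall control, 4.37, 4.05 and 4.15 in free wall paced, 3.8, 3.77 and 4.32 in septum control and 4.46, 4.23 and 4.62 in septum paced arrays. Its difference was 0.71 (SE 0.23), and 0.64 without the array.

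NFATC2IP, a partner of the NFAT transcription factors, read 4.9, 4.77 and 4.64 in free wall control, 4.32, 4.23 and 4.38 in free wall paced, 4.48, 4.38 and 4.58 in septum control and 4.62, 4.6 and 4.44 in septum paced arrays. The septum groups overlapped, and the free wall groups did not, with an effect of -0.46 (SE 0.11, unadjusted p = 0.00145). Its difference was 0.53 (SE 0.16), and 0.49 without free wall paced array 2. PXMP4, a protein of the peroxisome membrane, read 4.15, 3.98 and 4.17 in free wall control, 3.71, 3.78 and 3.76 in free wall paced, 3.96, 3.83 and 3.47 in septum control and 4.19, 3.92 and 3.96 in septum paced arrays. The free wall groups were again apart and the septum groups overlapped. Its difference was 0.62 (SE 0.19), and 0.64 without the array.

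LY6G5B, GALNT2 and FAM210B were lower in every paced array of the free wall and higher in every paced array of the septum. GALNT2, which starts the O-linked sugar chains of proteins, read 5.07, 5.21 and 5.13 in free wall control, 4.94, 4.93 and 4.7 in free wall paced, 5.07, 5.09 and 4.98 in septum control and 5.22, 5.44 and 5.21 in septum paced arrays. FAM210B, a mitochondrial protein, read 5.68, 5.46 and 5.57 in free wall control, 5.29, 5.38 and 5.36 in free wall paced, 5.47, 5.3 and 5.35 in septum control and 5.7, 5.55 and 5.71 in septum paced arrays. Their differences were 0.52 (SE 0.16) and 0.51 (SE 0.15), and 0.56 and 0.53 without free wall paced array 2. LY6G5B, of the Ly6 surface protein family, was at the edge of the filter with a mean log2 of 3.08. Its difference was 0.71 (SE 0.20), 0.78 without the array and 0.49 with low values raised to the 25th percentile.

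**Figure D3:**
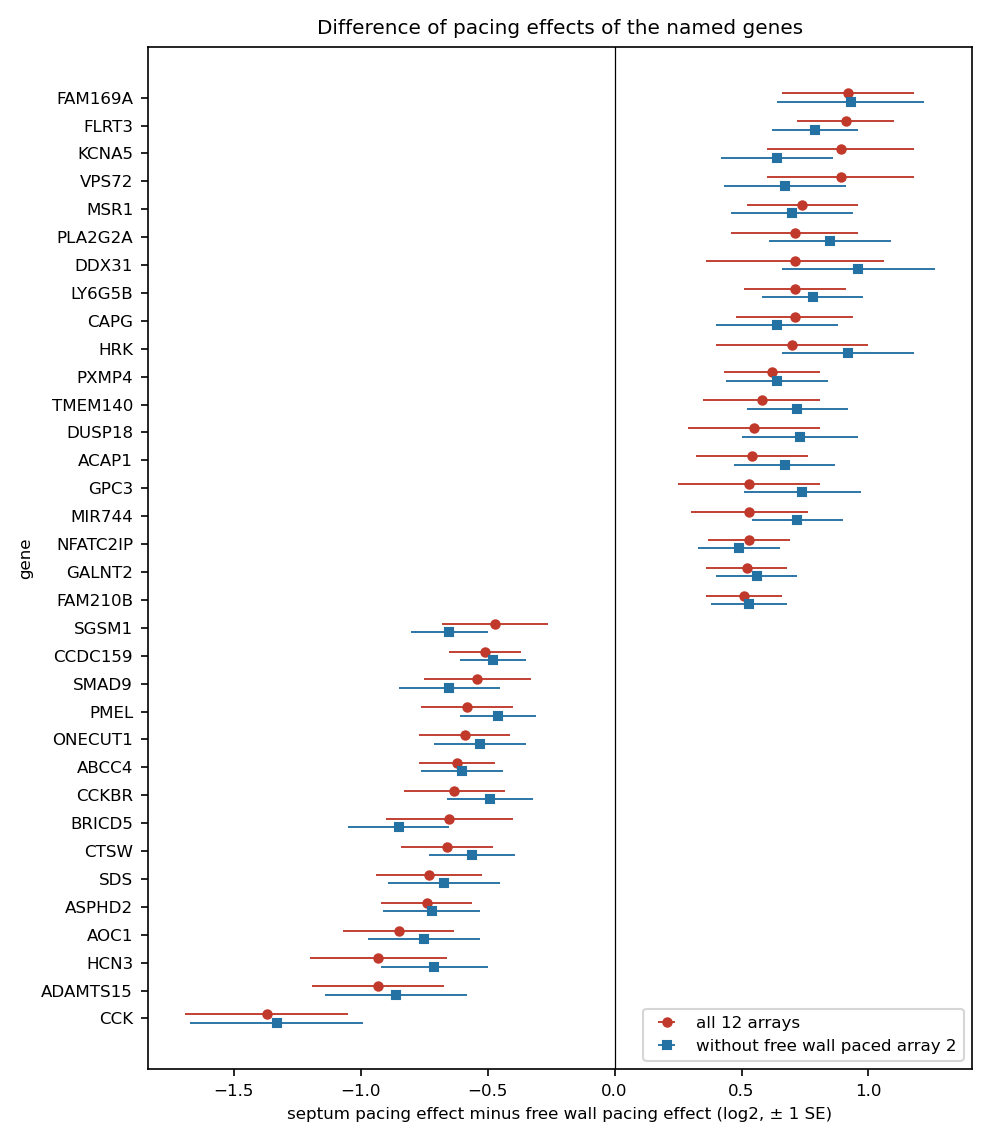
Difference of pacing effects (septum minus free wall, log2, horizontal axis) with bars of 1 SE for the 34 named genes chosen by size and p, from 12 arrays (circles) and without free wall paced array 2 (squares). Each gene lies on the same side of 0 in both, from CCK (-1.37 and -1.33) to FAM169A (0.92 and 0.93).

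Complete separation in opposite directions was rare. Paced arrays did not overlap with controls in the free wall in 337 genes on the higher side (3.37%) and 498 on the lower (4.98%), and in the septum in 670 (6.7%) and 470 (4.7%). Both regions separated in opposite ways in 15 genes (0.15%). With 3 arrays against 3, such separation arises in some genes by rank alone. No share expected without an effect was worked out, so the 15 are a description and have no test. In 5 genes (0.05%) the free wall was higher and the septum lower: CCDC159, PMEL, ONECUT1, the replication factor GINS2 and the scaffold protein LIMD1. In 10 genes (0.0999%) the free wall was lower and the septum higher: GALNT2, FAM210B, LY6G5B, GP91-PHOX, DVL1, HDGF, MRPL58, PERP, SKIV2L and LOC100514009. All but GINS2 had a difference at an unadjusted p under 0.05, which follows in part from the separation.

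Several of these were brighter than the genes chosen by size, though their differences were small. LIMD1, which binds regulators of the Hippo pathway, read 5.19, 5.17 and 5.22 in free wall control, 5.33, 5.36 and 5.42 in free wall paced, 5.62, 5.47 and 5.57 in septum control and 5.39, 5.39 and 5.19 in septum paced arrays. Its difference was -0.41 (SE 0.14), and the same without free wall paced array 2. HDGF, a nuclear growth factor, had 0.37 (SE 0.15), and DVL1, the adaptor of Wnt receptors, had 0.33 (SE 0.14). MRPL58, of the mitochondrial ribosome, had 0.39 (SE 0.15), and SKIV2L, a helicase of RNA decay, had 0.39 (SE 0.16). PERP, a membrane protein of desmosomes and a target of p53, had 0.51 (SE 0.20), and 0.39 without the array. GINS2 had -0.25 (SE 0.14).

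Leaving out free wall paced array 2 changed which genes had the smallest p. Both fits had 136 genes at that level, which was 55.1% of the list with 12 arrays and 54.6% of the list without the array. At an unadjusted p under 0.01 they had 14 in common, 51.9% and 37.8% of the lists.

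In the genes named for their values without the array, other than DDX31, it lay nearer to the mean of the free wall controls than the other free wall paced arrays did. These genes were picked for a low p once the array was left out, so that position follows in part from the choice. PLA2G2A, a secreted phospholipase, read 3.29, 3.87 and 3.65 in free wall paced arrays against 3.73, 3.61 and 4.05 in free wall control arrays. Septum control arrays read 3.31, 3.03 and 3.49, and septum paced arrays 3.7, 3.91 and 3.78. Its difference was 0.71 (SE 0.25), and 0.85 (SE 0.24, unadjusted p = 0.00478) without the array. GPC3, a heparan sulfate proteoglycan of the cell surface, read 3.82, 4.39 and 3.73 in free wall paced against 4.17, 4.54 and 4.24 in free wall control arrays, and 4.05, 4.11 and 3.77 in septum paced against 3.77, 4.05 and 3.52 in septum control arrays. Its difference was 0.53 (SE 0.28), and 0.74 (SE 0.23) without the array.

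SMAD9, a signal transducer of bone morphogenetic proteins, read 3.58, 3.31 and 3.71 in free wall paced against 3.42, 3.31 and 3.47 in free wall control arrays, and 3.1, 2.86 and 3.34 in septum paced against 3.33, 3.61 and 3.59 in septum control arrays. Its difference was -0.54 (SE 0.21), and -0.65 (SE 0.20) without the array. The BRICHOS protein BRICD5 had -0.65 with and -0.85 without the array, and the small G protein modulator SGSM1 had -0.47 and -0.65. Positive genes were the RNA helicase DDX31 (0.71 with the array, 0.96 without it), the cell death activator HRK (0.70 and 0.92), the phosphatase DUSP18 (0.55 and 0.73), the membrane protein TMEM140 (0.58 and 0.72) and the ARF6 regulator ACAP1 (0.54 and 0.67). A second ACAP1 probe set had a difference of -0.29 (SE 0.16), so its direction rested on the probe set chosen. The microRNA gene MIR744 had 0.53 and 0.72, from 2 probe sets with the same values on all 12 arrays.

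Some of the largest differences were carried by 1 or 2 arrays or came with a wide spread. UBAP1, a subunit of the endosomal sorting complex, had a difference of 1.49 (SE 1.32), with free wall paced array 2 at 2.87 while the other 11 arrays read 6.66 to 7.85, and the difference was 0.02 without it. SYT14, a synaptotagmin, had 1.62 (SE 0.81), with septum paced arrays at 5.44, 2.55 and 5.2 and no other array above 3.25. XDH, xanthine dehydrogenase, had 1.64 (SE 1.26), with free wall control arrays spread from 3.48 to 7.77. The fast myosin light chain MYL1 had 1.26 (SE 1.16). The sterol transporter GRAMD1B had 1.16 (SE 0.45, unadjusted p = 0.0235), and 1.12 without free wall paced array 2. Its septum control arrays were spread, at 6.34, 5.01 and 5.71. Leaving out each array in turn gave 0.83 to 1.49 for GRAMD1B. NR4A3, an immediate-early nuclear receptor, changed sign, from 0.42 (SE 1.21) to -0.97 (SE 0.41) without free wall paced array 2, which read 5.39 against 8.35 to 9.85 in the other arrays. MASP1, a protease of the lectin complement pathway, had 1.16 (SE 0.50, unadjusted p = 0.0393), and 1.08 (unadjusted p = 0.0767) without free wall paced array 2. Its septum control arrays were spread as well, at 7.33, 7.58 and 6.15. With each array left out in turn MASP1 had 0.73 to 1.44.

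Gene groups were described by 31 pathway lists and 16 cell type marker lists, with 1536 genes, of which 1062 were on the array and 940 were tested. At an unadjusted p under 0.05 were 34 of the 940 (3.62%, beside 2.47% of all genes), and 25 of the 47 lists held at least 1. The lists were chosen with earlier results of these data known, so the larger share is no independent evidence. List medians ran from -0.15 for skeletal muscle markers to 0.31 for macrophage markers, and from -0.21 to 0.31 without free wall paced array 2. The pathway lists were split evenly, with 15 medians above 0, 15 below and 1 at 0.

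**Figure D4:**
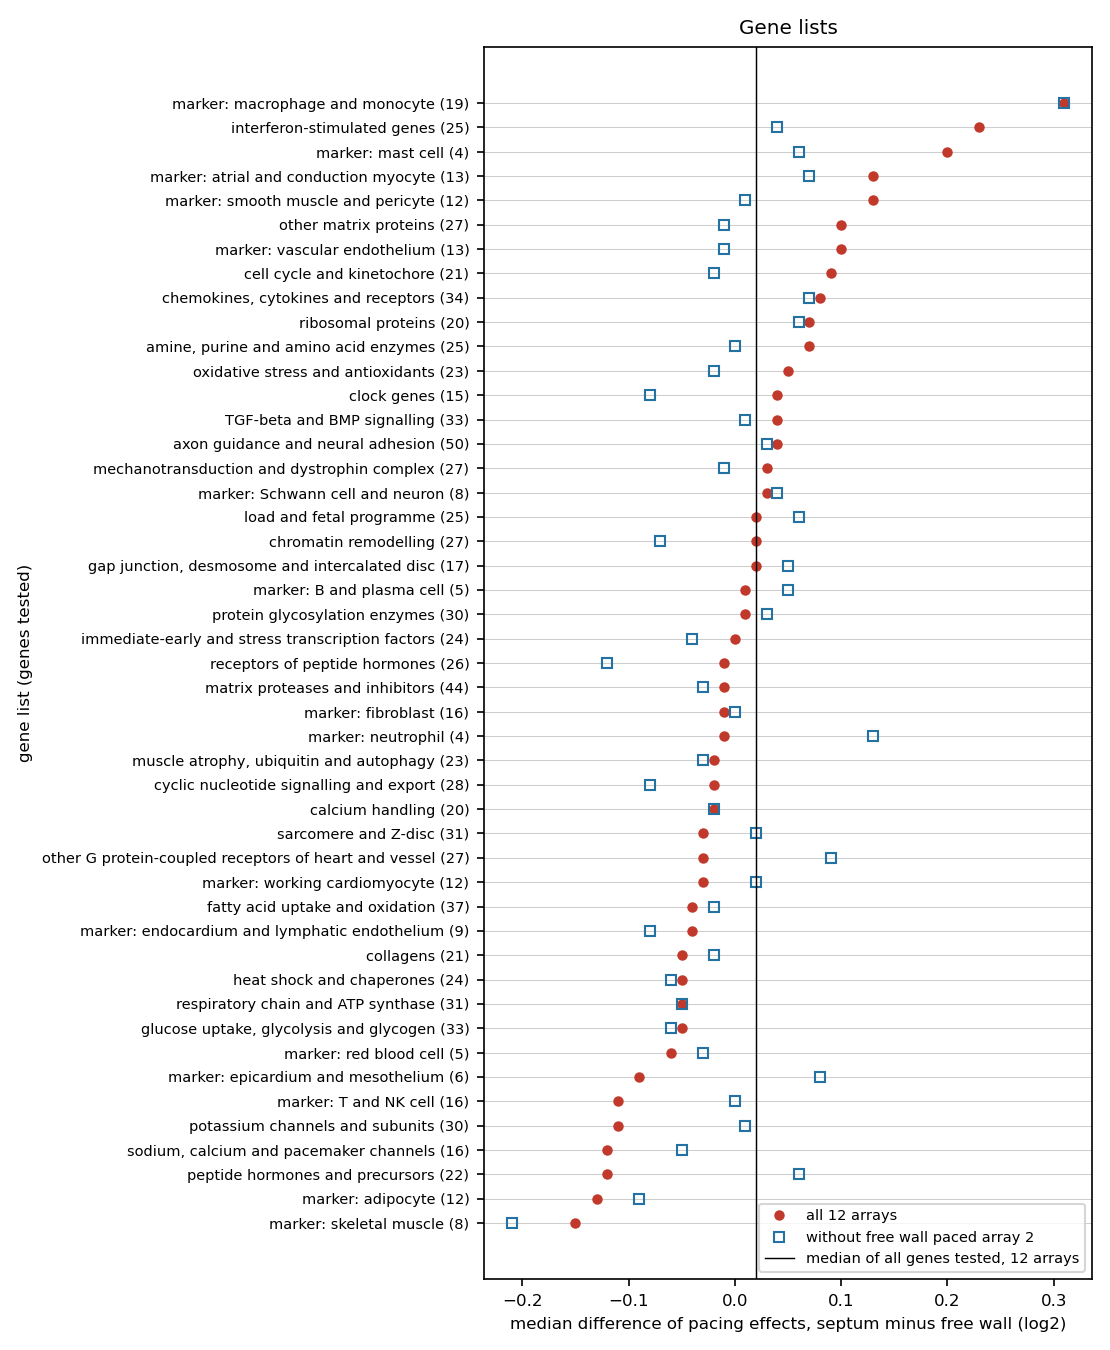
Median difference of pacing effects (septum minus free wall, log2, horizontal axis) of each of the 47 gene lists, with the number of genes tested in brackets, from 12 arrays (circles) and without free wall paced array 2 (squares). The vertical line is the median of all genes tested (0.02). Macrophage and monocyte markers lie at 0.31 in both, whereas the interferon-stimulated genes lie at 0.23 with 12 arrays and 0.04 without the array.

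Macrophage and monocyte markers had the highest median of the 47 lists. Of 26 listed, 22 were on the array and 19 were tested. Of the 19, 15 differences were above 0 (78.9%, beside 54.2% of all genes), with a median of 0.31 (0.02 over all genes). Without free wall paced array 2, 18 were above 0 (94.7%, beside 51.4%), with a median of 0.31. The median lay between 0.23 (without septum control array 3) and 0.36 (without septum control array 1) when each array was left out in turn. In the free wall the median pacing effect of the list was -0.28, and in the septum it was -0.03. A smaller set of macrophage markers had already shown this direction in these arrays, so the count is no independent support.

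The level of the list in single arrays shows where the separation lay. Its mean, centred per gene, was 0.13, 0.21 and 0.03 in free wall control, -0.07, -0.19 and -0.15 in free wall paced, 0.15, -0.01 and -0.17 in septum control and 0.02, -0.01 and 0.06 in septum paced arrays. Free wall paced arrays lay below free wall controls without overlap, and the septum paced arrays lay within the range of the septum controls. MSR1 and GP91-PHOX, the catalytic subunit of the phagocyte NADPH oxidase, were the members at an unadjusted p under 0.05 (10.5%, beside 2.47% of all genes).

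GP91-PHOX read 5.3, 5.42 and 5.44 in free wall control, 5.11, 4.24 and 5.16 in free wall paced, 4.97, 4.89 and 4.93 in septum control and 5.13, 5.23 and 5.13 in septum paced arrays. Paced arrays were below controls in the free wall and above controls in the septum. Its difference was 0.78 (SE 0.28), and 0.49 (SE 0.13, unadjusted p = 0.00403) without free wall paced array 2, the lowest of the 12. The complement genes C1QA, C1QB and C1QC, which resident macrophages make, had differences of 0.25 (SE 0.18), 0.41 (SE 0.31) and 0.54 (SE 0.29). The mannose receptor MRC1 had 0.71 (SE 0.41), and 0.32 (SE 0.28) without the array. The colony-stimulating factor receptor CSF1R had 0.12 (SE 0.16), the lipopolysaccharide receptor CD14 had 0.05 (SE 0.18) and the signal adaptor TYROBP had -0.10 (SE 0.25). The part of macrophage content in the values of MSR1, CAPG and GP91-PHOX was not tested.

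**Figure D5:**
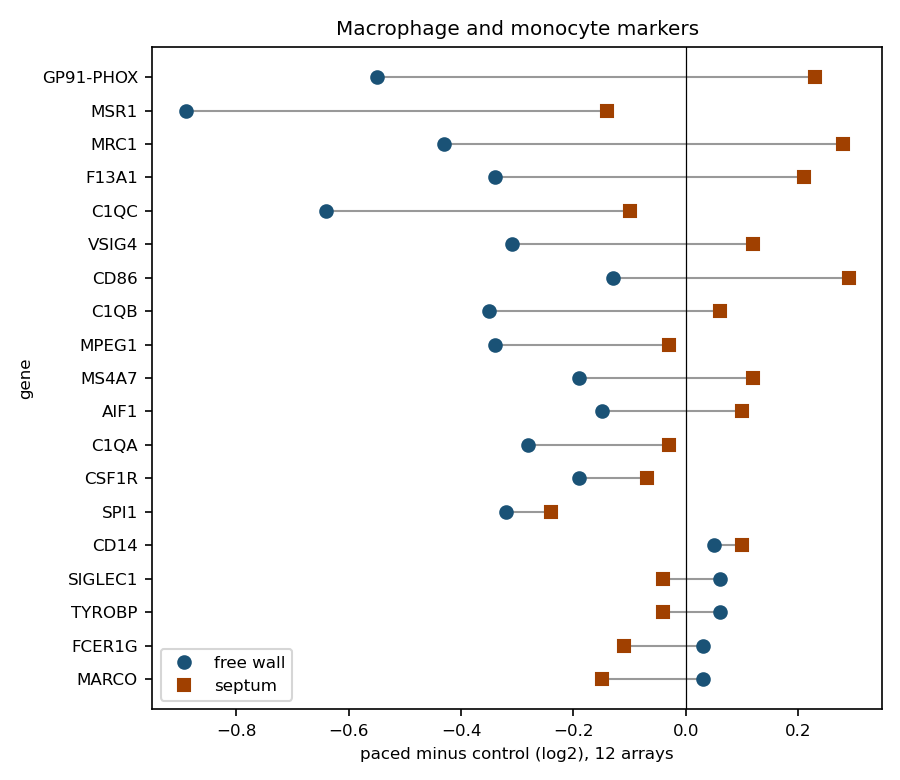
Pacing effect (paced minus control, log2, horizontal axis) of the 19 macrophage and monocyte markers tested, in the free wall (circles) and the septum (squares), 12 arrays. In 15 genes the septum lies to the right of the free wall, with the widest gaps in GP91-PHOX (-0.55 and 0.23) and MSR1 (-0.89 and -0.14).

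Interferon-stimulated genes had the next highest median, and it rested on the choice of arrays. Of 25 tested, 19 differences were above 0 (76%) with a median of 0.23, and 15 (60%) with a median of 0.04 without free wall paced array 2. Leaving out each array in turn moved the median between 0.02 (without septum control array 1) and 0.56 (without free wall control array 1). The chemokine CXCL9 had 0.77 (SE 0.30), and 0.55 (SE 0.26) without the array. USP18, which dampens interferon signalling, had 0.87 (SE 0.41). Of 34 chemokines, cytokines and receptors, 19 were above 0, and CCL28 alone was at an unadjusted p under 0.05, at -0.64 (SE 0.27), and -0.44 (unadjusted p = 0.0821) without the array.

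Most lists of contraction, matrix and energy supply stayed near the median of all genes. Of 31 sarcomere and Z-disc genes, 14 differences were above 0 and 17 below, and 17 above and 14 below without free wall paced array 2. FHL2, a LIM protein of the Z-disc, was the 1 at an unadjusted p under 0.05, with a free wall effect of -0.28, a septal effect of 0.27 and a difference of 0.55 (SE 0.21), and 0.53 without that array. CSRP3, the muscle LIM protein, had 0.29 (SE 0.18). Of 20 calcium handling genes, 8 were above 0 and 12 below, and of 17 gap junction, desmosome and intercalated disc genes, 10 were above 0, with none at that level in either list.

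Of 21 collagens, 7 differences were above 0 and 14 below, with a median of -0.05 and none at an unadjusted p under 0.05, and 16 fibroblast markers had a median of -0.01. Of 27 other matrix proteins, 16 were above 0 and 11 below, with none at that level. Their median was 0.10, and -0.01 without free wall paced array 2. Of 33 genes of TGF-beta and BMP signalling, 19 were above 0, and SMAD9 and GDF10 (-0.49, SE 0.22; -0.32 without free wall paced array 2) were at that level. Of 31 respiratory chain and ATP synthase genes, 13 were above 0, and the complex I subunit NDUFA6 had 0.56 (SE 0.21). Of 37 genes of fatty acid uptake and oxidation, 17 were above 0. PXMP4 and the lipid droplet protein PLIN2, with -0.74 (SE 0.33) from a septal effect of -0.74, were at that level. Of 33 genes of glucose use and glycogen, 13 were above 0 and none was at that level. Of 15 clock genes, 9 were above 0, and 6 without free wall paced array 2. The clock repressor CIPC had 0.70 (SE 0.29), with effects of -0.78 in the free wall and -0.09 in the septum.

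Most of the usual markers of cardiac load and remodelling had differences smaller than their SE. The natriuretic peptide gene NPPA had 0.23 (SE 1.19), with arrays spread from 4.75 to 8.55 in free wall control alone, and NPPB had -0.13 (SE 0.45). MYH7 had 0.03 (SE 0.13), and the skeletal actin ACTA1 had 0.02 (SE 0.27). The main gap junction gene GJA1 had -0.21 (SE 0.22). The collagen COL3A1 had -0.17 (SE 0.69), and COL1A1 had -0.22 (SE 0.41), or -0.40 (SE 0.23) on its other probe set. These errors leave room for differences of moderate size, above all in NPPA and COL3A1, and a p above the threshold is no evidence of equal responses. MYH6 and the calcium pump ATP2A2 were not analysed here, as no probe set carried their symbols.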

How the data were processed

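Affymetrix arrays were hybridised with biotin-labelled total RNA that Trizol had extracted, per the labels. The deposited values are RMA signals on the log2 scale, made with Affymetrix Expression Console 1.4 per the submitters' processing notes. RMA brings the distributions of the arrays together, so a shift shared by most genes would largely not be seen. The deposited distributions were still not equal, with array medians from 4.3 to 4.45. The array's genome build is not given in the sources used here. Of 27558 probe sets, 13323 carried 1 gene symbol and 357 several, through GEO's platform annotation, and 7 symbols were updated from a RefSeq table of Sscrofa11.1. Probe sets with several symbols or none were tested but not named. The number of arrays limits the precision of every value.

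Group means were fitted with limma 3.58.1 (R 4.3.3, 8 residual and 3.68 prior degrees of freedom), two-sided, with Benjamini-Hochberg adjustment over 20668 probe sets. All p-values given come from this fit or, for 11 arrays, from the same fit without free wall paced array 2 (7 residual and 3.58 prior degrees of freedom). The code was tested on simulated data. Named genes were those at an unadjusted p under 0.01, up to 15 in each direction with 12 arrays and 8 more without free wall paced array 2, genes with opposite regional effects each under 0.05 (up to 6 per direction), a fixed set, and up to 3 members with the smallest p of each list described. Uncharacterised loci gave up their place. Some genes stand outside this rule and were chosen after their values were seen. They were UBAP1, SYT14, XDH, GRAMD1B, MASP1, BCAT2, KCNK3, AGTR1, P2RY14, NR4A3, further macrophage markers and the genes separated in opposite ways. The members and lists were chosen with earlier results of these data known. Alternatives concerned the filter, variance model, array weights, scaling, low values, replicate number as a block, probe set of a gene, genes tested and each array left out. Figures were drawn with matplotlib 3.10.9.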

Additional observations from a re-analysis of the deposited data

How the results depend on the processing

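No alternative to the fit of 12 arrays called a probe set, and the smallest limma adjusted p was 0.0994, with septum paced array 2 left out. With free wall paced array 2 left out, the number called was 0 to 1 as each further array was left out. The 1 came without free wall paced array 3, which leaves 1 free wall paced array, assumed to vary like the other groups. It was number 15287649, with no symbol, at 2.74 (adjusted p = 0.00827; 1.03 and 0.999 with 12 arrays). The count of 139 positive genes was 228 with array weights, and 76 to 194 with each array left out. That of 108 negative genes was 42 above the 50th percentile, and 63 to 267 with each array left out. The 230 genes of opposite sign were 141 above the 50th percentile, and 125 to 405 with each array left out. Without free wall paced array 2, the 164 positive genes were 107 above the 50th percentile, and the 85 negative genes 47, with ranges of 153 to 213 and 77 to 193 as each further array was left out. The stricter filter tests fewer genes, and the cause of the other shifts was not tested.

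Free wall and septum arrays of 1 number shared deviations in controls (r = 0.32, 0.25 and 0.24) but not in paced arrays (0.09, -0.17 and -0.18), so the numbers were not taken as pairs. With the number within treatment as a replicate block, 154 positive and 106 negative genes were at an unadjusted p under 0.05 with 12 arrays, and 283 and 200 without free wall paced array 2. No block gave a call, but every block tied equal numbers. Paced arrays correlated best with another number (0.42, 0.48 and 0.41). This is a hint, from the data and not from the design, that equal numbers may not match between regions. No block with other pairings was run, so the blocks do not show whether pairing by animal matters.

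The 34 genes named by size and p, and so picked far from 0, kept their sign in all 828 values under the alternatives. The ACAP1 difference was 0.12 as the mean of its probe sets. Of 1169 list medians under the alternatives, 65 moved beyond their spread.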

Other observations

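Probe sets without a single gene symbol held some of the clearest differences of pacing effects. Of 9936 tested, 58 were at an unadjusted p under 0.01 with 12 arrays, beside 27 of 10007 genes (0.27%). Of the 58, 35 were at that level also without free wall paced array 2. Probe sets 15298641 and 15304650, both among the 35, had the same values on all 12 arrays, so these counts hold a repeated signal. Probe set 15285607 read 4.6, 4.5 and 4.37 in free wall control, 3.94, 3.95 and 4.02 in free wall paced, 3.91, 3.94 and 4 in septum control and 4.44, 4.14 and 4.17 in septum paced arrays. Paced arrays were below controls in the free wall and above them in the septum, and the difference was 0.82 (SE 0.16, limma unadjusted p = 0.000256; 0.81 without the array). Probe set 15235100 had the opposite pattern, with 4.36, 4.43 and 3.91 in free wall control, 4.86, 4.92 and 4.56 in free wall paced, 4.53, 4.84 and 5.06 in septum control and 4.01, 3.72 and 4.31 in septum paced arrays. Its difference was -1.34 (SE 0.28), and -1.27 without the array. Among the 35 at that level in both, the values furthest from 0 in each direction were those of 15260977 at -1.76 (SE 0.46) and 15182967 at 1.67 (SE 0.39). All 4 were chosen after their values were seen.

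Uncharacterised loci were also among the larger differences. LOC100738057 had 1.62 (SE 0.44), LOC100152459 had 1.01 (SE 0.30), LOC100518850 had 0.82 (SE 0.25) and C6H1orf94 had -0.76 (SE 0.23). Without free wall paced array 2 they had 1.52, 1.01, 1.02 and -0.66.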
